A study of Mus musculus with 24 samples.

Results

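Disaccharidases and alkaline phosphatases of the small intestine were described in the jejunum of wild type and Ptk6-/- mice with or without succinate in the drinking water. The genes were chosen by name as rows of the deposited tables: Sis, Lct, Mgam and Treh for the disaccharidases, and Alpi, Akp3 and Alpl for the phosphatases, 7 of 56691 genes in all. Each row was read in all 24 libraries. Whole-tissue RNA was prepared from the distal jejunum of 3 mice in each of 8 groups, and strand-specific libraries of polyadenylated RNA were sequenced. The groups were wild type male, Ptk6-/- male, wild type female and Ptk6-/- female mice, each as controls on regular water and as mice given 100 mM succinate in the water for 7 days. Ptk6-/- mice carry a germline disruption of the gene for protein tyrosine kinase 6 in every cell, on a C57BL/6 background. A single colony supplied the mice, which were adults of matched age born to more than 1 litter. Since RNA came from whole tissue, fewer cells of a type and less RNA per cell cannot be told apart in any value given here.

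Dietary starch, sucrose, lactose and trehalose can be absorbed only after they are split to single sugars, and the enzymes that do so sit in the brush border, the carpet of microvilli on the absorptive enterocytes. Sucrase-isomaltase (Sis) and maltase-glucoamylase (Mgam) are large related enzymes with paired catalytic domains that work on sucrose and on the ends of starch chains, lactase (Lct) splits milk sugar, and trehalase (Treh) splits the sugar of insects and fungi. Intestinal alkaline phosphatases remove phosphate groups from substrates in the lumen, bacterial lipopolysaccharide among them. In the mouse Alpi is made along the small intestine, Akp3 belongs chiefly to the duodenum, and Alpl encodes the tissue-nonspecific enzyme of bone, liver, kidney and many other cells. Factors of the CDX, HNF1 and GATA families are known to act together on promoters of genes of this class, the sucrase-isomaltase and lactase promoters being the classical examples.

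The promoter sequences of the 4 disaccharidases and of Alpi and Akp3 are shown because these enzymes belong to the same membrane, and they differ in which short motifs they hold. Each is the 250 bases before the annotated start of the gene, read from RefSeq sequences of build GRCm38.p6, 5′ to 3′ on the strand of the gene. All 7 members were matched by symbol. Capitals mark matches, on either strand, to TTTAT (the core bound by CDX factors, read as ATAAA from the opposite strand), GTTAAT (a core of HNF1 sites, read there as ATTAAC), the GATA core GATAA (with TTATC as its reverse complement) and, for the TATA box, the letters TATAAA (whose reverse complement is TTTATA). Every match to the TATA box letters also holds the CDX core.
Sis, chr3:72967864-72968113, minus strand: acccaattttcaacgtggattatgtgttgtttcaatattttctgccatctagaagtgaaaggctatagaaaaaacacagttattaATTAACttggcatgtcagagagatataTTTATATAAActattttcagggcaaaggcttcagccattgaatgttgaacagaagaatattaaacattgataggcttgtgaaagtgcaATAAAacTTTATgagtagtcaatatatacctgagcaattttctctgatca
Lct, chr1:128328319-128328568, minus strand: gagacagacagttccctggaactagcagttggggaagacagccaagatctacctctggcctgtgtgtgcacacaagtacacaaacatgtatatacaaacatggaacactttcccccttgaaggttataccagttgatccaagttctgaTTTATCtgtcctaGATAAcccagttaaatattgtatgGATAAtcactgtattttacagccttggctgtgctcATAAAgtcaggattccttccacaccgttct
Mgam, chr6:40628581-40628830, plus strand: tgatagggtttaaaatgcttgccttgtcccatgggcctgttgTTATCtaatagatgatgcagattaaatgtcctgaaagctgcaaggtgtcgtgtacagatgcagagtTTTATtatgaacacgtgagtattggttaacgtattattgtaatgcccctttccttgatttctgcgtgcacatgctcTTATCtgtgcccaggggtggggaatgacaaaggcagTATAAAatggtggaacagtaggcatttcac
Treh, chr9:44672983-44673232, plus strand: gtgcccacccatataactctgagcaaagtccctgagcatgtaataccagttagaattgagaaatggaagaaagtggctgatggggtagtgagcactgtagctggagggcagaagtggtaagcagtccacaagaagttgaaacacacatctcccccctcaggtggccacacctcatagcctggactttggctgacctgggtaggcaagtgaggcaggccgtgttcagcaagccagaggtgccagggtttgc
Alpi, chr1:87101607-87101856, minus strand: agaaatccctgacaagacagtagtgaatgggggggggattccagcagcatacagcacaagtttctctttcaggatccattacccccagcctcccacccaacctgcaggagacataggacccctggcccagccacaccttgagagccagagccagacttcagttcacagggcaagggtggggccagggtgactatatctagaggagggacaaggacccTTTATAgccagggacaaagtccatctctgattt
Akp3, chr1:87124704-87124953, plus strand: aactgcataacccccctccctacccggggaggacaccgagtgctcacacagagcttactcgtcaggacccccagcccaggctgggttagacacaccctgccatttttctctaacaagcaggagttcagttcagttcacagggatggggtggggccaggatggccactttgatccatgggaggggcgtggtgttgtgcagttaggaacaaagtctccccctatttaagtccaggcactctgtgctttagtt

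The Sis promoter held 4 TTTAT matches, which began 138, 133, 50 and 43 bases before the start, 1 GTTAAT match 165 bases before it and 2 overlapping TATA box matches. In Lct there were 2 TTTAT and 3 GATAA matches, and in Mgam 2 of each and a TATA box match 30 bases before the start. Alpi held 1 TTTAT match and 1 TATA box match, the latter read on the opposite strand, which overlapped and both began 33 bases before the start. No match was found in Akp3 or Treh, which says only that these letters are not in this window, and the start used for Akp3 was not found in a GENCODE transcript. Counting Alpl, which has 2 promoter entries of which only 1 held any match, 5 of 7 members had a TTTAT match in a promoter and 4 of 7 a TATAAA match, 2 of 7 a GTTAAT match and 2 of 7 a GATAA match. Among all 32851 promoters of this length, 37.26% held TTTAT, 12.37% TATAAA, 6.432% GTTAAT and 22.58% GATAA. A match is a run of letters and not a measured binding site.

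Library totals ran from 8080321 to 52824743 counts with a median of 43017686.5. Ptk6 had 284 to 2405 counts in the wild type libraries and 7 to 61 in the Ptk6-/- libraries, so that the labels and the targeted gene go together. Vil1, a defining gene of the enterocyte brush border, was present in all libraries. Library 1 of the wild type control males and library 1 of the Ptk6-/- succinate males stood apart, with 51.2% and 29.7% of their counts on the ribosomal RNA gene Rn18s-rs5 against a median of 0.397% over all libraries. Library 2 of the wild type succinate females held heart transcripts, with 9018 CPM (counts scaled to library totals after edgeR's TMM factors) of the cardiac myosin gene Myh6. Values without them are given beside the results they moved most. The libraries also differed in how their levels followed gene length. The slope of log2 CPM, less each gene's mean, on log2 length ran from -0.190 to 0.216 per library. A positive slope means relatively more counts of long genes. Set to 1 for the median gene, the estimated lengths were 3.33 for Mgam, 2.05 for Sis, 1.76 for Lct, 0.643 for Alpi and 0.564 for Treh.

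Sis, Mgam, Lct, Treh and Alpi were plentiful, and Akp3 and Alpl were scarce. By FPKM, the level corrected for gene length and library total, Alpi stood highest with a mean of 162.9 over the 24 libraries, rank 245 of the 34471 genes with a count. Sis and Mgam had mean FPKM of 72.4 and 72.2, Treh of 45.8 and Lct of 36.3. Akp3 had a mean FPKM of 0.174 and Alpl of 0.373. Alpi was the highest member in 23 of 24 libraries, and Mgam was the highest in library 1 of the Ptk6-/- succinate males. Sis stood above Mgam in 10 of 24 libraries, so that these do not have a fixed order, and Alpi stood above Akp3 in 24 of 24. Lct stood above Treh in 9 of 24 libraries and above Sis in 1.

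In GRCm39, Alpi (ENSMUSG00000079440) is annotated at chr1:87025724-87029328 on the minus strand and Akp3 (ENSMUSG00000036500) at chr1:87052695-87055634 on the plus strand, so that these neighbours lie 23367 bases apart. Lct (ENSMUSG00000026354) is on the same chromosome at chr1:128212493-128256055, minus strand. Sis (ENSMUSG00000027790) is at chr3:72795890-72875196, minus strand, and Mgam (ENSMUSG00000068587) at chr6:40605765-40746057, plus strand. Treh (ENSMUSG00000032098) is at chr9:44584530-44597602, plus strand, where its end overlaps Phldb1 on the other strand by 2 bases, and Alpl (ENSMUSG00000028766) is at chr4:137469044-137523695, minus strand. Relatives share short stretches: of all 50-base stretches of the Akp3 transcripts, 1.57% also occur in Alpi, and of those of Alpi 1.53% occur in Akp3. Alpi had 410 to 41063 counts and Akp3 0 to 79, so that reads from these stretches could make up the whole count of Akp3, whose values are uncertain for this reason. The 6 libraries with 0 Akp3 held 410 to 16204 counts of Alpi. Mgam shares 0.295% of its stretches with the pseudogene Mgam2-ps, and Sis and Mgam share none of this length.

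Maltase-glucoamylase is described in TMM-scaled CPM, as is each gene from here on unless another unit is named. Over the 12 control libraries Mgam ran from 1127 to 2360.1 CPM with a median of 1430.3, and over the 12 succinate libraries from 325.5 to 2097 with a median of 767. In wild type males the controls had 1791, 1377 and 1484 CPM of Mgam and the succinate mice 1233, 833 and 629, with no overlap. In wild type females the controls had 1127, 1162 and 1352 CPM and the succinate mice 493, 373 and 867, again with every succinate mouse below every control. The Ptk6-/- females also separated, at 1217, 1739 and 1193 CPM in controls against 701, 325.5 and 642 with succinate. Only the Ptk6-/- males overlapped, at 1512, 1749.8 and 2360.1 CPM of Mgam in controls and 1416, 2097 and 1429 with succinate. The library with most ribosomal RNA, wild type control male 1, and the heart-bearing library, wild type succinate female 2, were the extremes of their groups in the same direction as the differences.

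Lactase varied most between libraries among the plentiful members. Lct controls ran from 261 to 652 CPM, and succinate libraries from 7.87 to 500.4, so that the highest and lowest library differed 82.9-fold. Wild type males had 403, 386 and 365 CPM of Lct as controls and 311, 273 and 133 with succinate. Ptk6-/- males had 430.3, 524 and 534 CPM as controls and 77.9, 288 and 371 with succinate, so that both male genotypes separated without overlap. Wild type females had 652, 261 and 563 CPM of Lct as controls and 63.0, 22.1 and 500.4 with succinate, where the third succinate mouse lay within the control range. Ptk6-/- females had 281, 386 and 305 CPM as controls and 241, 7.87 and 111 with succinate, with no overlap. The lowest values, under 80 CPM, were in 1 Ptk6-/- male, 2 of 3 wild type females and 1 Ptk6-/- female, all given succinate.

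Sucrase-isomaltase overlapped between treatments in every sex and genotype. Wild type males had 781, 809 and 823 CPM of Sis as controls and 945, 484 and 427 with succinate. In Ptk6-/- males the values were 1085, 951 and 1602 CPM as controls and 277, 1193 and 1209 with succinate, and the 277 CPM came from the library of lowest depth. Among females, wild type controls had 406, 496 and 889 CPM and succinate mice 252, 183 and 709. Ptk6-/- females had 544, 1018 and 659 CPM of Sis as controls and 491, 301 and 739 with succinate.

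Trehalase had the lowest mean of the disaccharidases in CPM, a scale on which its short transcript counts for less. Wild type control females had the highest group of Treh values at 175, 166 and 228 CPM, and wild type succinate females had 84.0, 48.5 and 142, with no overlap. Ptk6-/- females had 84.8, 81.2 and 191 CPM of Treh as controls and 108, 26.8 and 72.1 with succinate. In males the treatments overlapped in both genotypes: wild type mice had 122, 144 and 141 CPM as controls and 88.8, 215 and 178 with succinate. Ptk6-/- males had 104, 162 and 138 CPM of Treh as controls and 101.5, 124 and 184 with succinate.

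The plentiful phosphatase Alpi had 506, 617 and 650 CPM in wild type control males and 541, 298 and 391 in wild type succinate males. Ptk6-/- males had 564, 817 and 794 CPM of Alpi as controls and 112, 608 and 714 with succinate. Among wild type females the controls had 674, 271 and 624 CPM and the succinate mice 221, 192 and 681. Ptk6-/- females had 454, 638 and 781 CPM of Alpi as controls and 401, 117 and 501 with succinate. The treatments overlapped in all 4 combinations of sex and genotype, and the lowest Alpi libraries, Ptk6-/- succinate male 1 and Ptk6-/- succinate female 2, were also among the lowest for Lct.

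Akp3, the duodenal phosphatase, was at the limit of detection and is given as raw counts. Wild type control males had 5, 32 and 12 counts of Akp3 and Ptk6-/- control males 24, 79 and 33. Wild type control females had 46, 12 and 12 counts and Ptk6-/- control females 9, 19 and 39. All 12 controls therefore held some Akp3, whereas 6 of 12 succinate libraries held 0. With succinate, wild type males had 22, 0 and 0 counts, Ptk6-/- males 0, 29 and 38, wild type females 0, 0 and 33, and Ptk6-/- females 40, 0 and 60. A count of 0 allows up to 3 counts, which in 5 of these libraries is 0.0592 to 0.0973 CPM, below the lowest control at 0.213 CPM. In the shallow Ptk6-/- succinate male 1 it is 0.823 CPM, so that its 0 carries little information. The succinate libraries with Akp3 lay within the range of the controls, up to 1.02 CPM against 1.57.

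Alpl, the tissue-nonspecific phosphatase, had 13 to 373 counts per library and 0.929 to 3.20 CPM in the controls. With succinate it ran from 0.850 to 12.1 CPM, and the 12.1 CPM of Alpl came from wild type succinate female 2, the library with heart transcripts. The other succinate libraries reached at most 3.57 CPM, in the shallow Ptk6-/- succinate male 1. Across the 24 libraries Alpl was negatively correlated with each of the other 6 members, with Pearson r of -0.655 to -0.412 on log2 CPM. Without the 2 libraries farthest from the median of the other member, r was -0.398 to -0.112. That rule does not look at Alpl, so its library at 12.1 CPM stays wherever the other member is not extreme there. These values describe libraries that share tissue makeup and depth.

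When the 8 groups were ordered by their mean CPM, no pair of neighbouring groups was free of overlap for any of the 7 genes. The highest group mean was 3.18 times the lowest for Sis, 4.13 times for Lct, 3.37 times for Mgam, 2.75 times for Treh and 2.14 times for Alpi. Single mice weigh on these ratios: the lowest mean of Sis, in wild type succinate females, came from 252, 183 and 709 CPM. The lowest mean of Lct, in Ptk6-/- succinate females, came from 241, 7.87 and 111 CPM. For Akp3 the ratio was 7.06, from few counts. The highest group mean of Alpl, that of the wild type succinate females, rests on the heart-bearing library at 12.1 CPM, beside 1.73 and 1.96 in the other mice of the group.

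**Figure D1:**
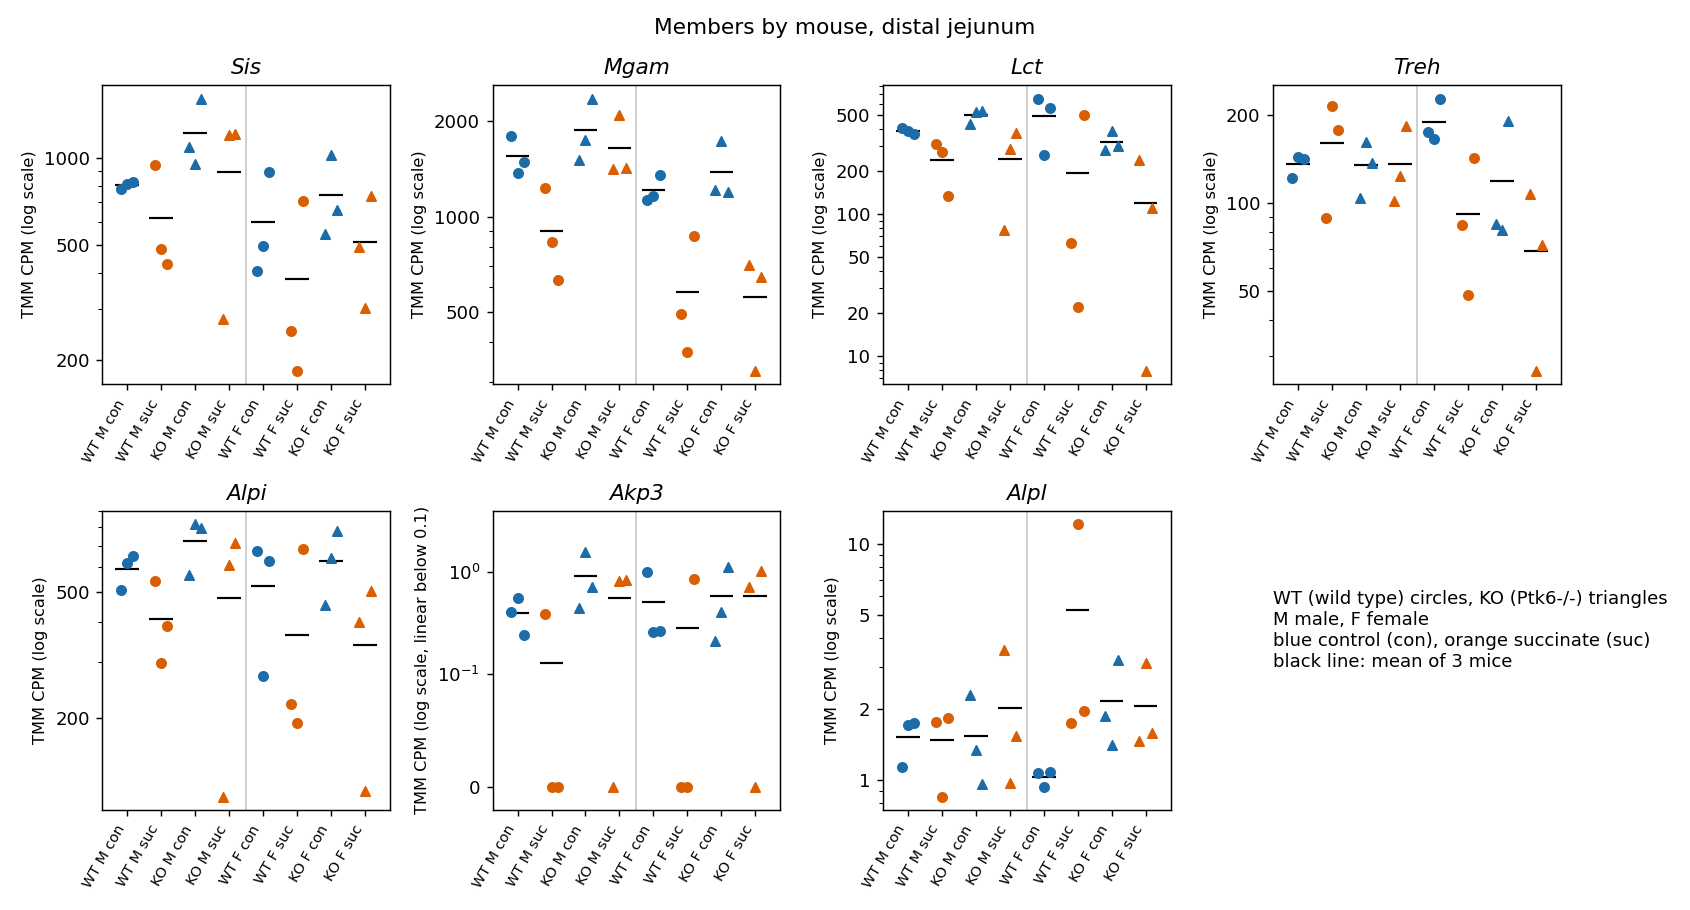
TMM-scaled CPM (log axis) of each of the 7 genes in every library of the 8 groups, with the mean of 3 mice as a black line; the axis for Akp3 is linear below 0.1. WT is wild type and KO Ptk6-/-, M male and F female, con control and suc succinate. Mgam ran from 1127 to 2360.1 CPM over the controls and from 325.5 to 2097 with succinate, and Akp3 was at 0 in 6 of 12 succinate libraries.

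Whether succinate altered these enzymes was tested within each sex and genotype and, with all 24 libraries, as the average over both. A gene was called where edgeR's quasi-likelihood test gave an adjusted p under 0.05 and the change was at least 2-fold. No member was called in any of the 16 comparisons run here, of genotype, succinate, sex and their interactions. In the average Mgam was lower with succinate, at a log2 fold change of -0.84 ± 0.178 (SE, 12 against 12 mice), with an adjusted p of 0.0237 by edgeR, which passes the p threshold and falls short of 2-fold. Of all genes tested, 1.03% passed that p threshold and 0.728% were called. Mgam was lower in each sex and genotype, although in the Ptk6-/- males the value was only -0.15. Without the 3 libraries that stood apart its log2 fold change was -0.72 and its adjusted p by edgeR 0.0997.

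Lct had the lowest averaged fold change of the plentiful members, a log2 value of -1.12 ± 0.442 (SE) with an adjusted p of 0.228 by edgeR. Its result turned on single mice: without wild type succinate female 3, whose Lct lay in the control range, the value was -1.67 with an adjusted p of 0.0138, which would be called. Without the 3 libraries that stood apart it was -0.86 with an adjusted p of 0.439. Alpi was at -0.63 ± 0.291 (adjusted p = 0.294), Sis at -0.50 ± 0.266 (adjusted p = 0.353) and Treh at -0.39 ± 0.227 (adjusted p = 0.395), all by edgeR. Alpl was at 0.62 and Akp3 was lower, neither past the threshold. The fitted fold of Akp3 depends on the offset given to its counts of 0 and is not printed. Without the 3 libraries that stood apart Sis was at -0.31, Treh at -0.28, Alpi at -0.45 and Alpl at 0.07. Over the 7 genes 6 had values below 0, with a median of -0.63, whereas over all genes tested 50.3% had values below 0. Voom with library quality weights, a limma method that gives less weight to deviant libraries, called Lct alone at -1.46 and 3.68% of all genes.

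**Figure D2:**
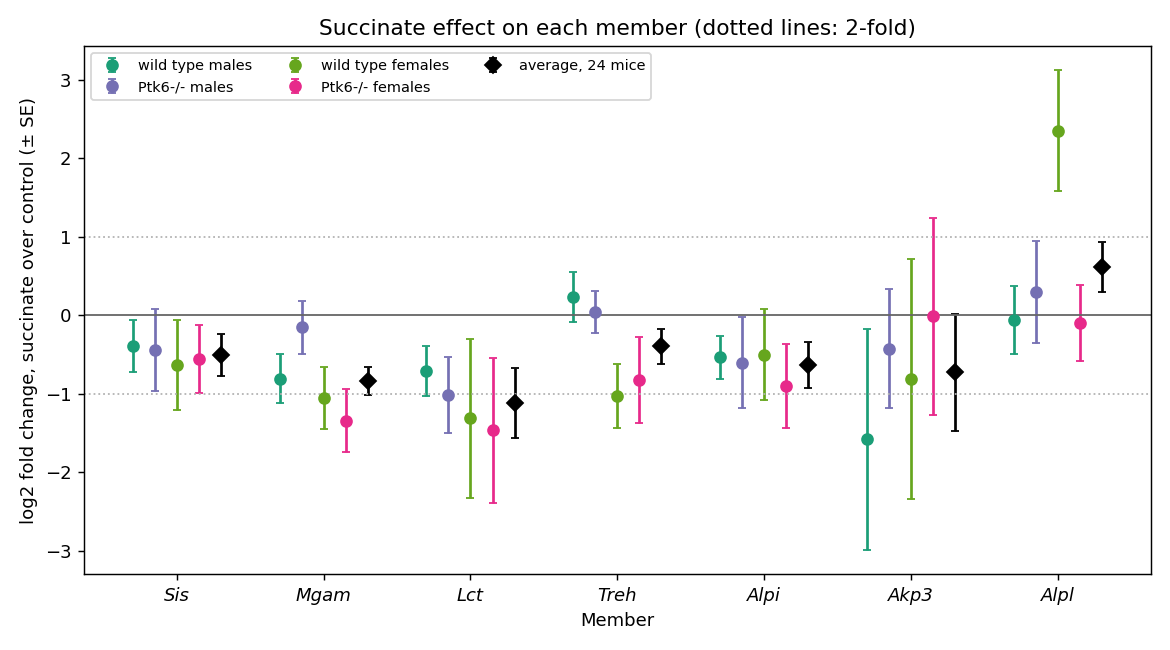
Log2 fold change (succinate against control) of each gene in each sex and genotype and in the average over both, with edgeR's fitted value as a point and its SE as a bar. Mgam lay at -0.84 in the average with the narrowest SE, and Lct at -1.12 with a wider one.

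Within wild type males Mgam was at -0.81 ± 0.315 (SE, 3 against 3) with an unadjusted p of 0.0343 and an adjusted p of 0.947 by edgeR, and Lct at -0.71 ± 0.318 with an adjusted p of 0.947. Both separated without overlap, as did 4.52% of all genes in the lower direction. Without wild type succinate male 1, which had the most Mgam of its group, Mgam would be called at -1.13 with an adjusted p of 0.0170. That library had a length slope of 0.166, and the others of its group had -0.159 and -0.120. The wild type control males had -0.0443, -0.00514 and 0.00559, and Mgam is the longest member. The part of gene length in this call was not tested. Without wild type succinate male 3, which had the least of both, Lct was at -0.43 and Mgam at -0.61. Voom with quality weights called Lct at -1.16, Mgam at -1.05 and, from counts of 22, 0 and 0 with succinate, Akp3 in this comparison, where it called 7.81% of all genes. edgeR called 0% of 19183 genes there, an unadjusted p under 0.05 was reached by 4.07%, and DESeq2 called 50 genes.

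Among Ptk6-/- males, Lct was at -1.01 ± 0.488 with an unadjusted p of 0.0743 and an adjusted p of 0.600 by edgeR, and at -0.62 without the shallow Ptk6-/- succinate male 1. Its mice did not overlap, as for 12.4% of all genes in this direction. No member had an unadjusted p under 0.05 there. edgeR called 0% of 18966 genes, 7.75% reached an unadjusted p under 0.05, and DESeq2 called 36.

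In wild type females Mgam was at -1.05 ± 0.398 (unadjusted p = 0.0305, adjusted p = 0.617 by edgeR) and Treh at -1.03 ± 0.411 (unadjusted p = 0.0377, adjusted p = 0.626 by edgeR), both without overlap, as for 6.66% of genes in this direction. Without the heart-bearing library Mgam was at -0.81 and Treh at -0.72. Lct was at -1.31 ± 1.01 with an adjusted p of 0.784 by edgeR, and without wild type succinate female 3 it would be called at -3.49 with an adjusted p of 0.0406. Alpl was higher without overlap, as were 6.41% of genes, at 2.35 ± 0.774 with an adjusted p of 0.617 by edgeR, and at 0.87 without the heart-bearing library. edgeR called 0% of 18872 genes, 7.77% reached an unadjusted p under 0.05, and DESeq2 called 274.

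The Ptk6-/- females had all 7 genes below 0, with a median of -0.82, where 52.8% of all genes lay below 0. The scarce genes among them were nearly level in mean CPM, Akp3 at 0.581 in controls and 0.579 with succinate, and Alpl at 2.16 and 2.05. Their signs therefore say little. Mgam was at -1.34 ± 0.405 with an unadjusted p of 0.0111 and an adjusted p of 0.389 by edgeR, and Lct at -1.46 ± 0.920 with an adjusted p of 0.583 by edgeR. Lct was at -0.91 without Ptk6-/- succinate female 2, at 7.87 CPM, and at -2.45 without Ptk6-/- succinate female 1, at 241 CPM. Both separated without overlap, as did 11% of all genes in this direction. edgeR called 17 of 19334 genes, 0.0879%, and no member, while 10.7% reached an unadjusted p under 0.05 and DESeq2 called 426.

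Other genes of the enterocyte were taken from fixed lists. Of 13 brush border peptidases, which finish protein digestion on the same membrane, 12 were below 0 in the averaged succinate comparison, with a median log2 fold change of -0.76, and 0 were called by edgeR. An unadjusted p under 0.05 was reached by 9, all lower, and by 16.1% of all genes, with Xpnpep2 at -1.05 (adjusted p = 0.0673), Mep1b at -0.76 (adjusted p = 0.0682) and Anpep, aminopeptidase N, at -0.86 (adjusted p = 0.131) among them. Of 11 genes of microvillus structure 10 were below 0, with a median of -0.51 and 0 called. Myo7b, a motor at the microvillus tips, was at -0.80 (adjusted p = 0.0534) and the actin bundler Vil1 at -0.65 (adjusted p = 0.130). Of 13 genes of sugar uptake and its sensing 11 were below 0, with a median of -0.33 and 0 called. Of 16 transcription factors of enterocytes 13 were below 0, with a median of -0.30 and 0 called, and Hnf4a, Vdr and Nr1i2 had values from -0.48 to -0.45. Of 8 genes of the villus tip 3 were below 0, with a median of 0.22 and 0 called, the lipoprotein gene Apoa4 at 0.66 (adjusted p = 0.141 by edgeR), and their sum had a median of 3828 CPM in controls and 5184 with succinate. Of 10 genes of the villus base and middle, Gsdmc4 was called higher at 2.55 and the antimicrobial lectin genes Reg3g and Reg3b lower at -2.03 and -1.83 (adjusted p of 3e-06, 0.0110 and 0.0297 by edgeR). The median of these 10 was -0.63 in the average, -1.01 and -1.18 in wild type and Ptk6-/- females, and -0.17 and 0.48 in wild type and Ptk6-/- males. Lists of the proximal and the distal intestine had medians of -0.06 and -0.35 with 0 called, and the distal sum had a median of 6585 CPM in control females and 3398 with succinate, against 4810.0 and 6175 in males.

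Markers of other cell types were read in the same way. Of 12 tuft cell markers edgeR called 8, all higher, with a median of 1.68. The summed tuft list ran from 66.9 to 93.1 CPM in controls and from 64.7 to 120.0 in succinate males and 137 to 395 in succinate females. Smooth muscle markers summed to 1722 to 4644 CPM in controls and 1872 to 7651 with succinate, and 1 of 7, Actg2, was called at 1.12 (adjusted p = 0.0355). The heart list summed to 13.2 to 71.0 CPM in controls, median 29.3, and with succinate to a median of 48.9 and a highest value of 20394 in the heart-bearing library. The goblet list had medians of 12701 CPM in control males and 15197 with succinate, and of 15541 and 12997 in females. Immune markers likewise went from 867 to 1058 CPM in males and from 767 to 582 in females, and crypt genes from 646 to 523 and from 551 to 701. Paneth markers had medians of 15735 and 15580.3 CPM in males and 16282 and 22140.1 in females, with 1 of 8 called higher in the averaged comparison, and in control males 8 of 8 were lower in Ptk6-/- mice, with 1 called. The microvillus structure genes themselves summed to 11045 to 17777 CPM in controls, median 14421, and 5384 to 16225 with succinate, median 10223. The part of these cell types in the member values was not tested.

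The members were also read as ratios to the summed CPM of the 11 microvillus structure genes, a set of 15 tests chosen after seeing the data. Each was tested by a two-sided exact permutation within the 4 strata of sex and genotype, or the matching strata of the other factors, with 1 added to each value before the ratio was taken and adjustment over the 15. The log2 ratio of Mgam was lower with succinate, with a difference of -0.39 (permutation p = 0.00655, adjusted p = 0.0328), in 4 of 4 strata. Its median was -3.26 in controls, from -3.95 to -2.69, and -3.72 with succinate, from -4.12 to -2.95, so that the ranges overlap widely. The ratio of Lct was lower too, with a difference of -1.20 (permutation p = 0.00448, adjusted p = 0.0328) in 4 of 4 strata, with medians of -5.11 and -5.99. In FPKM in place of CPM Mgam was at -0.37 and did not pass (adjusted p = 0.0523 by permutation). Neither passed without the 3 libraries that stood apart, where Mgam was at -0.35 and Lct at -0.85, each with an adjusted p of 0.0833 by permutation. Single libraries also ended these calls, in 12 of 24 for Mgam and in 11 of 24 for Lct, with adjusted p of up to 0.0861 and 0.0769 by permutation. The corresponding ratios of Sis, Treh and Alpi had adjusted p of 0.238 or more. Between genotypes the Treh ratio had a mean of -6.43 in wild type and -6.85 in Ptk6-/- mice, and the Sis ratio of -4.43 and -4.03. With all 24 libraries neither genotype difference passed the adjusted threshold. Leaving out 1 library gave the Treh ratio an adjusted p of 0.0238 to 0.133 by permutation. For the Sis ratio that range was 0.0382 to 0.448.

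**Figure D3:**
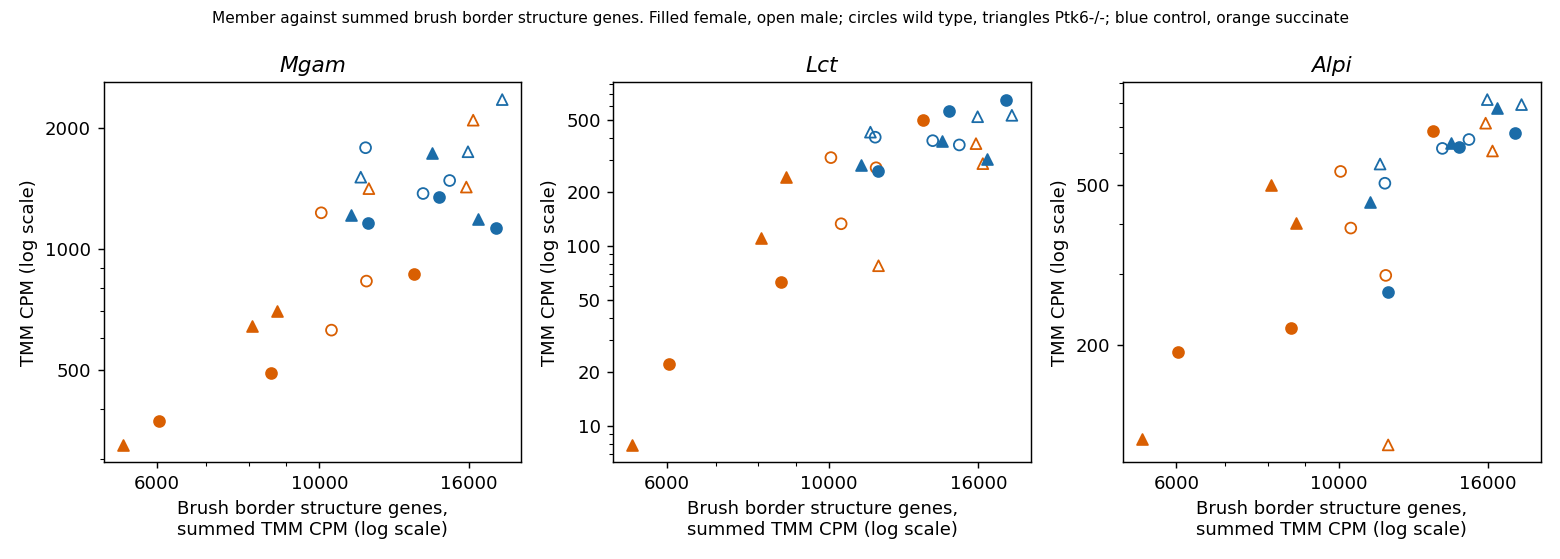
CPM of Mgam, Lct and Alpi (log axis) against the summed CPM of the 11 microvillus structure genes (log axis), 1 point per library, with filled points for females, open points for males, circles for wild type, triangles for Ptk6-/-, blue for controls and orange for succinate. The structure sum ran from 11045 to 17777 CPM in controls and from 5384 to 16225 with succinate, and the lowest sums went with the lowest Mgam and Lct.

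Whether loss of Ptk6 altered these enzymes was asked first in the control mice. In males the Sis values of Ptk6-/- mice lay above those of wild type mice without overlap, at 951 to 1602 against 781 to 823 CPM, a log2 fold change of 0.57 ± 0.216 (SE, 3 against 3) with an unadjusted p of 0.0285 and an adjusted p of 0.146 by edgeR. Lct also separated, at 0.34 ± 0.150 with an adjusted p of 0.200 by edgeR. In this comparison 16.4% of all genes separated in the higher direction, 25.2% had an unadjusted p under 0.05 and edgeR called 142, 0.739%, where DESeq2 called 307. Without Ptk6-/- control male 3, which had 1602 CPM of Sis, the value was 0.33. The length slopes of these libraries also separated, at 0.216, 0.159 and 0.143 in Ptk6-/- and -0.0443, -0.00514 and 0.00559 in wild type mice. Sis and Lct are long genes. Over 10 alternative fits, which included an offset for gene length, Sis was at 0.32 to 0.97 and Lct at 0.16 to 0.77. With that offset edgeR called 52 genes. The part of gene length in the Sis and Lct values was not tested further.

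In control females the disaccharidases overlapped between genotypes. Alpl was higher in Ptk6-/- mice without overlap, at 1.87, 1.40 and 3.20 against 1.07, 0.929 and 1.08 CPM, a log2 fold change of 1.09 ± 0.403 with an adjusted p of 0.400 by edgeR. It was at 0.72 without Ptk6-/- control female 3. The higher direction without overlap held 9.51% of all genes, 11.1% reached an unadjusted p under 0.05 and edgeR called 3, 0.0158%, where DESeq2 called 169. With all mice Treh was not called by edgeR, at 175, 166 and 228 CPM in wild type and 84.8, 81.2 and 191 in Ptk6-/- mice. Without Ptk6-/- control female 3, at 191 CPM, Treh would be at -1.14 with an adjusted p of 0.0275 by edgeR. The length slopes were 0.118, 0.191 and -0.156 in Ptk6-/- and -0.0257, -0.150 and -0.0893 in wild type control females. Without that library the slopes of the genotypes therefore separate, and Treh is a short gene. The part of gene length in this value was not tested. Voom with quality weights called Treh at -1.17 among 10.4% of all genes.

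Under succinate the male genotypes separated for Mgam, at 1416 to 2097 CPM in Ptk6-/- and 629 to 1233 in wild type mice, a log2 fold change of 0.90 ± 0.442 with an unadjusted p of 0.0753 and an adjusted p of 1.000 by edgeR. Higher without overlap were 3.04% of all genes. In the same comparison 11 of 11 microvillus structure genes were higher, with a median of 0.49 and 0 called. Of 11 tuft cell markers tested 10 were lower, with a median of -0.86 and 0 called. The part of these genes in the Mgam value was not tested. edgeR called 0% of 18904 genes, 2.72% reached an unadjusted p under 0.05, and DESeq2 called 72. Voom with quality weights called Sis at 1.24, Mgam at 1.29 and also Akp3 here, and 9.52% of all genes, where the fitted fold of Akp3 depends on the offset given to counts of 0 and is not printed. In females no member separated under succinate. edgeR called 0% of 19180 genes there, 4.52% reached an unadjusted p under 0.05, and DESeq2 called 40. Averaged over sex and treatment no member was called for genotype, where 0.0184% of all genes were, and the 7 values had a median of 0.17. Voom with quality weights called Akp3 higher in that average, and 7.09% of all genes.

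The test of whether the succinate difference itself differed between genotypes found no member in males, where Mgam was at 0.66 ± 0.450 with an adjusted p of 0.993 by edgeR. In females Alpl was at -2.42 ± 0.944 with an unadjusted p of 0.0250 and an adjusted p of 0.752 by edgeR, and at -0.95 without the heart-bearing library. edgeR called 0% of 20340 genes in males and 0% of 20531 in females, 3.8% and 6.46% reached an unadjusted p under 0.05, and DESeq2 called 59 and 57. The difference of the succinate values between sexes, added after seeing the data, was -1.05 ± 0.454 for Treh with an adjusted p of 0.542 and -0.71 ± 0.354 for Mgam with an adjusted p of 0.625, both by edgeR, where 0.0738% of genes were called and 8.27% reached an unadjusted p under 0.05. In the controls the genotype difference of Lct was 0.34 in males and -0.57 in females, an interaction of -0.91 ± 0.404 with an unadjusted p of 0.0440 and an adjusted p of 0.999 by edgeR. There edgeR called 0% of 20428 genes, 4.64% reached an unadjusted p under 0.05, and DESeq2 called 13. In the test of all 3 factors together Alpl was at -2.75 ± 1.27 with an unadjusted p of 0.0423 and an adjusted p of 0.830 by edgeR, and at -1.24 without the heart-bearing library, where edgeR called 0% of genes, 5.99% reached an unadjusted p under 0.05 and DESeq2 called 101.

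Between the sexes the smallest p-values were those of Mgam and Sis, and no member was called. Mgam ran from 325.5 to 1739 CPM in females, median 997, and from 629 to 2360.1 in males, median 1456, a log2 difference of -0.75 ± 0.178 (12 against 12) with an unadjusted p of 0.000396 and an adjusted p of 0.0635 by edgeR. Sis ran from 183 to 1018 CPM in females, median 520.4, and from 277 to 1602 in males, median 884, a difference of -0.66 ± 0.266 with an adjusted p of 0.251 by edgeR. By comparison, 0.36% of all genes were called and 15.3% reached an unadjusted p under 0.05. DESeq2 gave Mgam an adjusted p of 0.00147 and limma's voom with quality weights 0.00762, in both cases with less than a 2-fold change. Relative to the microvillus structure genes the Mgam difference was -0.45 (permutation p = 0.000763, adjusted p = 0.0114) in 4 of 4 strata, and without the 3 libraries that stood apart -0.39 with an adjusted p of 0.0833. Of those structure genes 10 of 11 were lower in females too, with a median of -0.31 and 0 called by edgeR.

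Ratios between members were compared by the same permutation, in 12 planned tests with adjustment over the 12. The log2 ratio of Lct to Sis in FPKM differed with succinate by -0.92 (permutation p = 0.00559, adjusted p = 0.0632) in 4 of 4 strata, with a median of -0.776 in controls, from -1.35 to 0.889, and -1.43 with succinate, from -4.04 to -0.278. The ratio of Treh to Sis differed in Ptk6-/- mice from wild type by -0.81 (permutation p = 0.0105, adjusted p = 0.0632) in 4 of 4 strata, with medians of -0.0734 in wild type and -1.11 in Ptk6-/- mice. Neither passed the adjusted threshold. Treh is short and Sis long, at 0.564 and 2.05 of the median length, so that their ratio can move with the length slope of a library. The part of that slope in the genotype difference was not tested. The ratio of Lct to Sis between genotypes was -0.61 with an adjusted p of 0.175 by permutation. That of Alpi to Akp3 between treatments was -0.76 with the same adjusted p, but Akp3 is so low that the 1 added to it leaves this value close to that of Alpi alone, and nothing is read from it about Akp3. The other 8 had adjusted p of 0.567 to 0.940. In CPM in place of FPKM the Lct to Sis ratio with succinate was -1.05 (adjusted p = 0.0395) and the Treh to Sis ratio between genotypes -0.82 (adjusted p = 0.044), both by permutation.

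**Figure D4:**
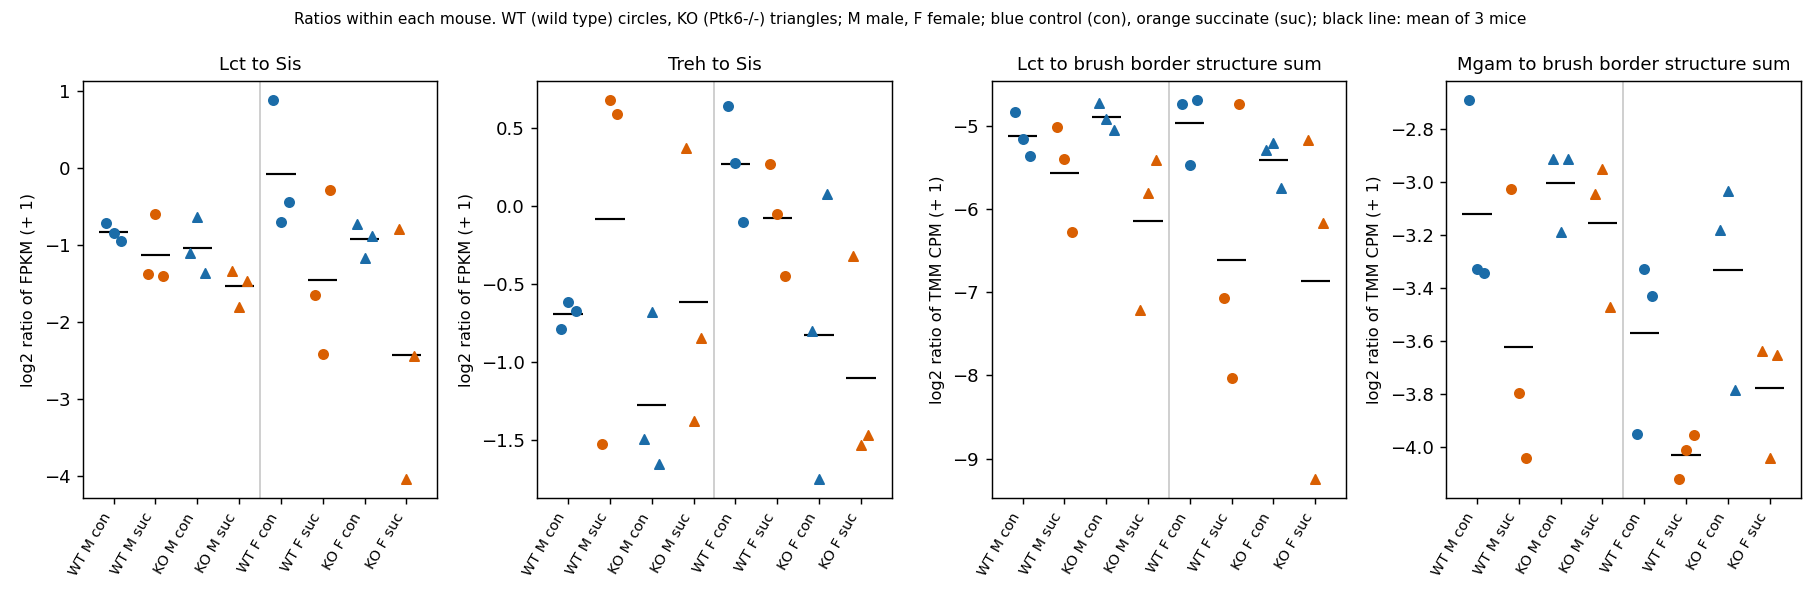
Log2 ratios in every library by group, of Lct to Sis and Treh to Sis in FPKM plus 1, and of Lct and Mgam to the summed microvillus structure genes in CPM plus 1, with the mean of 3 mice as a black line. WT is wild type and KO Ptk6-/-, M male and F female, con control and suc succinate. The Lct to Sis ratio had a median of -0.776 in controls and -1.43 with succinate, and the Treh to Sis ratio a median of -0.0734 in wild type and -1.11 in Ptk6-/- mice, with overlapping ranges.

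Across the 24 libraries the members followed each other to differing degrees, as a description of libraries that share tissue makeup, sex and treatment. Lct and Alpi had a Pearson r of 0.849 on log2 CPM, Alpi and Akp3 of 0.840, Sis and Alpi of 0.821, Lct and Mgam of 0.803 and Sis and Mgam of 0.786. The weakest positive pair was Treh and Akp3 at 0.373. These were also read without the 2 libraries farthest from the median of 1 gene of the pair. Without those farthest for Treh, Treh and Akp3 stood at 0.030, and without those for Mgam, Treh and Mgam at 0.124, from 0.556. Lct and Alpi stood at 0.788 without those for Lct, and Alpi and Akp3 at 0.813 without those for Alpi. Among 8566 protein coding genes with a mean of at least 10 CPM, those most like Lct were Mme, a brush border peptidase, at 0.965, Slc7a15 at 0.951 and the aromatic amino acid transporter Slc16a10 at 0.950. Sis was most like Gcnt4 at 0.937, the nuclear receptor gene Hnf4g at 0.926 and Arhgap1 at 0.919. Treh was most like Fam151a at 0.930, the sodium-coupled inositol transporter Slc5a11 at 0.924 and the fatty acid binding protein Fabp2 at 0.922. Alpi was most like Btnl2 at 0.969, Slc18b1 at 0.966 and Prr14 at 0.949. For the scarce Akp3 the values were 0.879 for Sec24d, 0.872 for Ppp4r1 and 0.869 for Epb41l3.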

How the data were processed

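RNA from the distal jejunum of 24 mice, 3 in each of 8 groups, was sequenced by the authors as stranded libraries of polyadenylated RNA. Reads were trimmed with Cutadapt, aligned with HISAT2 and assembled with StringTie by the authors, and GRCm39 is the build in the submitters' processing notes. The authors deposited 1 table of raw read counts per gene and 1 of FPKM values. The program that counted the reads is not given in the sources used here. Library totals were 8080321 to 52824743 counts.

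Counts were tested with edgeR 4.0.16 (quasi-likelihood, TMM factors, R 4.3.3) over the genes that reached 10 counts in 3 or more libraries, and p-values were adjusted by Benjamini-Hochberg over all genes tested. A call needed an adjusted p under 0.05 and a change of at least 2-fold. Pairs of groups and the interactions within a sex were fitted on the groups concerned, and averaged comparisons on all 24 libraries. Gene-to-gene ratios were compared by exact permutation within strata (160000 arrangements). Correlations used log2 TMM-scaled CPM. Alternatives were DESeq2 1.42.0, limma 3.58.1 (voom, and log2 of FPKM plus 1), other scaling, filters, the replicate block and leaving out libraries. A further alternative gave edgeR an offset for gene length in each library. The fitting steps were tested on simulated data.

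Fold changes are printed for members with an unadjusted p under 0.05 or without overlap between groups. Further values, such as Lct in wild type females and all members but Akp3 in the averaged succinate comparison, were added after they were seen. Other genes named are up to 3 per list with the smallest p, and the 3 most correlated genes for each of Sis, Lct, Treh, Alpi and Akp3. An example from 1 list is not reported here. The members and the lists were chosen with earlier results of these data known. Litters differed, but nothing pairs mice across groups, and p-values measure the spread between mice.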

Additional observations from a re-analysis of the deposited data

How the results depend on the processing

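The log2 fold changes of members with an unadjusted p under 0.05 or without overlap kept their direction under every alternative that was run. They also kept their side of the threshold in 253 fits that left out 1 library and in 193 at other settings, newly passed it in 5 and 12, and lost it in 6 and 2. The count of members called by edgeR was 0 in each comparison. With limma's voom and quality weights it was 1 for genotype in control females, 3 for succinate in wild type males, 3 for genotype in succinate males, 1 for the averaged genotype effect and 1 for the averaged succinate effect. By edgeR without a fold threshold it was 1 for the averaged succinate effect, which was Mgam. Leaving out 1 library gave 0 to 1 members called for genotype in control females, for succinate in wild type males and females, and for the averaged succinate effect. The adjusted p of Mgam in the averaged succinate effect was under 0.05 in 8 of 10 alternatives and in 18 of 24 fits that left out 1 library, and was lost without wild type control male 1, wild type succinate males 2 or 3, Ptk6-/- control male 3, wild type succinate female 1 or Ptk6-/- control female 2.

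Among the ratios, CPM in place of FPKM gave Lct to Sis with succinate -1.05, Treh to Sis with genotype -0.82 and Alpi to Akp3 with succinate -0.59, now past the threshold, though with 1 added the last is close to Alpi alone. Without the 3 libraries that stood apart, Lct to Sis with sex was 0.072, Sis to Mgam with sex -0.062, Alpi to Akp3 with genotype 0.085, and relative to the microvillus structure genes Sis with succinate was 0.049 and Alpi with sex -0.15, all of reversed sign, and Lct and Mgam with succinate (-0.85 and -0.35) and Mgam with sex (-0.39) no longer passed. FPKM in place of CPM gave Mgam with succinate -0.37, no longer passing, and Alpi with sex -0.0029. With 1 library left out, Lct to Sis was -0.81 to -0.41 for genotype, -1.12 to -0.72 for succinate and -0.29 to 0.11 for sex. Sis to Mgam was 0.14 to 0.39 for succinate and -0.063 to 0.19 for sex, Treh to Sis -0.99 to -0.70 for genotype, and Alpi to Akp3 -0.21 to 0.28 for genotype, -0.94 to -0.45 for succinate and -0.43 to 0.057 for sex. Relative to the structure genes the ranges were 0.31 to 0.54 and -0.50 to -0.26 for Sis with genotype and sex, -0.48 to 0.033 and -1.43 to -0.90 for Lct with genotype and succinate, 0.22 to 0.34, -0.46 to -0.34 and -0.504 to -0.377 for Mgam with genotype, succinate and sex, -0.50 to -0.33 and -0.047 to 0.11 for Treh with genotype and succinate, and -0.059 to 0.22 and -0.17 to 0.12 for Alpi with genotype and sex. Relative to the structure genes, leaving out 1 library ended the call of Lct with succinate in 11 of 24 cases and of Mgam with succinate in 12, including wild type control male 1, wild type succinate male 3, Ptk6-/- control males 1 and 3, wild type control females 2 and 3, wild type succinate female 1, Ptk6-/- control females 1 and 2 and Ptk6-/- succinate female 2 for both, wild type control female 1 for Lct, and wild type succinate male 2 and Ptk6-/- succinate male 3 for Mgam. The cause of these changes was not tested.

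Replicate numbers did not pair the mice: in 0 of 8 comparisons did every same-numbered pair correlate above 0.1 (r from -0.356 to 0.234), and in 0 did every library correlate best with its own number. With the replicate block the ratio of Treh to the structure genes with genotype was -0.42 with an adjusted p of 0.0330 by permutation, and the block changed no other call of a member or ratio. Akp3 and Alpl are limited by depth, with at most 79 and 373 counts in any library.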
